A study of Mus musculus with 79 samples.

Results

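Heat shock proteins and ER chaperones were described here through a list of 10 genes of protein folding. The list holds Hspa1a and Hspa1b (the stress-inducible Hsp70 proteins), Hspa8 (the constitutive Hsp70, Hsc70), Hsph1 (Hsp105, a nucleotide exchange factor for Hsp70), Hspb1 (the small heat shock protein Hsp25 of the mouse), Hsp90aa1 (cytosolic Hsp90 alpha), Dnajb1 (Hsp40, a J-domain co-chaperone), Hspa5 (BiP, the Hsp70 of the ER), Hsp90b1 (Grp94, the Hsp90 of the ER) and Pdia4 (ERp72, a disulfide isomerase of the ER). A row of the expression table was taken for each symbol through the RefSeq gene table or the gene names of the study. A single row was found for 9 of the 10 genes. Hsp90aa1 had no row under its name and was not analysed here. The table holds 31350 rows, of which 21837 carried a symbol. All 9 genes lay in the upper part of the table, from the 73.3rd percentile of mean signal (Dnajb1) to the 99.8th (Hspa8).

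Messenger RNA was measured in the right lung of 79 mice of 16 groups, with 4 to 6 mice in a group and 1 array for each mouse. The groups were wild type (WT) mice and littermates that overexpress Scnn1b (βENaC), males and females, each exposed to cigarette smoke or to room air (sham) for 1 day or for 5 consecutive days. All mice were 5 to 7 weeks old C57BL/6J, the smoke came from 6 reference cigarettes a day (3R4F) with the filters removed, sham mice spent an equal time in the chamber, and lungs were taken 4 hours after the last exposure. The Scnn1b transgene, which codes for the β subunit of the epithelial sodium channel, is driven by the club cell secretory protein promoter and thus acts in the airway epithelium, while RNA came from homogenized whole lung. There were 20 sham and 20 smoke mice at 1 day, and 20 sham and 19 smoke mice at 5 days. Values are log2 intensities, differences are on the log2 scale, and a gene was called when its limma p-value was below 0.05 after Benjamini-Hochberg adjustment over the whole table. Since the lung was homogenized, fewer cells of a type and less RNA per cell cannot be told apart.

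Scnn1b itself ran from 8.42 to 9.47 in WT and from 11.52 to 11.88 in βENaC mice with no overlap. The markers of alveolar and airway epithelium (Sftpc, Sftpb, Ager, Scgb1a1, Foxj1) had a mean signal of 11.39 to 11.7 in every mouse, while skeletal muscle markers (Acta1, Ckm, Myh4, Myh1, Tnnt3) reached 9.47 in 1 WT sham male at 1 day and 9.59 in 1 WT smoke female at 5 days against group medians of 3.39 to 3.53. The arrays correlated with each other with a median of mean correlations of 0.989. The lowest were a βENaC sham male at 1 day (replicate 1, 0.979) and a WT smoke female at 5 days (replicate 2, 0.981). Both are named below where a result rests on them.

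The heat shock proteins of the cytosol bind unfolded segments of proteins and release them under the control of ATP, with J-domain proteins loading Hsp70 and exchange factors unloading it. Their stress-inducible members are switched on by heat shock factor 1, which binds inverted repeats of a short GAA unit in the promoters. The ER holds its own Hsp70, Hsp90 and disulfide isomerases, which fold secreted and membrane proteins and are switched on through the unfolded protein response, in part through the ER stress response element (ERSE) of their promoters.

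The promoters of the list hold letters of both kinds. In the 250 bases before the start of transcription (RefSeq, GRCm38.p6), a pair of inverted heat shock units, GAANNTTC or TTCNNGAA (each its own reverse complement, so that both strands are covered), was found in Hspa1a, Hspa1b, Hsph1 and Hspb1. For Hsph1, on the minus strand, the starts used lay inside the gene, whose outer end is at 149636498. The pair of units is written below for each gene. Such a pair is a common match, present in 4218 of 32851 promoters (12.8%). A run of 3 alternating units stood in 153 promoters (0.466%), and in none of the 8 genes of the list with an entry. The ERSE, CCAAT followed by any 9 bases and CCACG on either strand, was far rarer, at 37 promoters (0.113%), and was found in Hspa5 and in Hsp90b1. Neither kind was found in Dnajb1 or Pdia4 in this window. Hspa8 and Hsp90aa1 had no entry. The stretches are shown because the comparisons below separate heat shock proteins of the cytosol from chaperones of the ER. They are written 5′ to 3′ on the strand of the gene with the matched letters in capitals:

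Hspa1a, chr17:34972241-34972272, minus strand: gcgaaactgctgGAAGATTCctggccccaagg

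Hspa1b, chr17:34959323-34959354, minus strand: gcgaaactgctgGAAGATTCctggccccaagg

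Hsph1, chr5:149636350-149636381, minus strand: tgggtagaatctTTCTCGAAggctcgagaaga

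Hspb1, chr5:135887790-135887841, plus strand: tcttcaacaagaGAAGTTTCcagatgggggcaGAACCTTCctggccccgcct

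Hspa5, chr2:34772013-34772055, plus strand: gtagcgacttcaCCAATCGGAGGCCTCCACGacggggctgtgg

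Hsp90b1, chr10:86705521-86705668, minus strand: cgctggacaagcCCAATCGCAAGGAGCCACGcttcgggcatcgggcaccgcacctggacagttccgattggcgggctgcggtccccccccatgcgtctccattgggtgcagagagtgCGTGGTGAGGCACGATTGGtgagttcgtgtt

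The stretches of Hspa1a and Hspa1b are identical letter for letter. These neighbours on chromosome 17 (34969359-34972156 and 34956429-34959238) code for nearly the same protein, so probes for either can take up messages of both, and their separate values are uncertain. A match of letters is a description and shows no binding.

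A single day of smoke was followed by higher levels of 5 of the 6 measured heat shock genes of the cytosol. The first question was which genes of the list differ between smoke and sham lungs with genotype and sex taken into account. At 1 day, 5 of the 9 measured genes were higher, against 5.03% of all rows. By limma none was lower, while 2 were at an unadjusted p below 0.05. The 5 genes were Hspa1b, Hsph1, Hspb1, Dnajb1 and Hspa8. Of these, Hspa1b and Hsph1 also passed a 1.3-fold change, which 0.488% of rows did upwards. The median difference over the 9 genes was 0.28, against 0.01 over all rows. With any mouse left out in turn, and in all 8 other ways of processing, the count stayed at 5. Cell type markers also moved at 1 day. Cdh5, 1 of 2 endothelial markers, was higher (0.14, adjusted p = 0.00297), while Pecam1 was not called (−0.04, adjusted p = 0.402). Retnlg, 1 of 3 neutrophil markers, was lower (−0.66, adjusted p = 0.0237). The part of such cells in the heat shock differences was not tested.

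Hspa1b had the largest difference of the list. In the 20 sham lungs at 1 day it ran from 6.35 through a median of 7.66 to 10.09, and in the 20 smoke lungs from 7.35 through 8.84 to 10.11. The ranges overlapped, since single sham mice reached the level of the highest smoke mice, but few smoke mice were low, and 18 of the 20 lay above the sham mean of their own genotype and sex. The difference was 1.05 (SE 0.27, 95% confidence interval 0.5 to 1.59, 2.07-fold, adjusted p = 0.00826). Hspa1a ran from 6.78 through 8.41 to 11.26 in sham and from 7.5 through 9.48 to 11.1 in smoke lungs. Its difference of 0.69 (0.03 to 1.35) did not pass the test (adjusted p = 0.208), and 15 of the 20 smoke mice were above their sham mean. The same WT sham male (replicate 2) was the highest sham mouse of that day for both Hsp70 genes and for Dnajb1, with 11.26, 10.09 and 7.26.

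The co-chaperones of Hsp70 were measured with less spread. Dnajb1, which stimulates the ATPase of Hsp70, ran from 6.63 through 6.79 to 7.26 in sham and from 6.81 through 7.11 to 7.46 in smoke lungs at 1 day. Here 19 of 20 smoke mice were above their sham mean and 7 of the 20 were above every sham mouse. Its difference was only 0.28 (SE 0.0531, 0.18 to 0.39, 1.22-fold), yet its adjusted p of 0.000294 was the lowest of the list. Hsph1 ran from 7.5 through 8.14 to 9.24 in sham and from 8.18 through 8.83 to 9.43 in smoke lungs. The smoke mice filled the upper part of the sham range, the lowest of them being just above the sham median, and the difference was 0.56 (SE 0.13, 0.3 to 0.83, 1.48-fold, adjusted p = 0.00301). Without the βENaC sham male whose array stood apart, which was also the sham mouse with the highest Hsph1 (9.24) and Hspa8 (12.18), the differences were 0.62 for Hsph1 (adjusted p = 0.000499) and 0.18 for Hspa8 (adjusted p = 0.00193).

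Hspb1, a small heat shock protein that holds unfolded proteins without ATP, ran from 7.21 through 7.68 to 8.59 in sham and from 7.65 through 8 to 8.63 in smoke lungs. The ranges shared their upper ends, and 18 of 20 smoke mice were above their sham mean. The difference was 0.31 (SE 0.092, 0.12 to 0.49, 1.24-fold, adjusted p = 0.0263). Hspa8, the Hsp70 that every cell makes, ran from 11.64 through 11.82 to 12.18 in sham and from 11.79 through 12.02 to 12.18 in smoke lungs. The highest mice of both groups were at 12.18 after rounding, 18 of 20 smoke mice were above their sham mean, and the difference was the smallest of the 5, at 0.16 (SE 0.0421, 0.07 to 0.24, 1.11-fold, adjusted p = 0.0116).

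**Figure D1:**
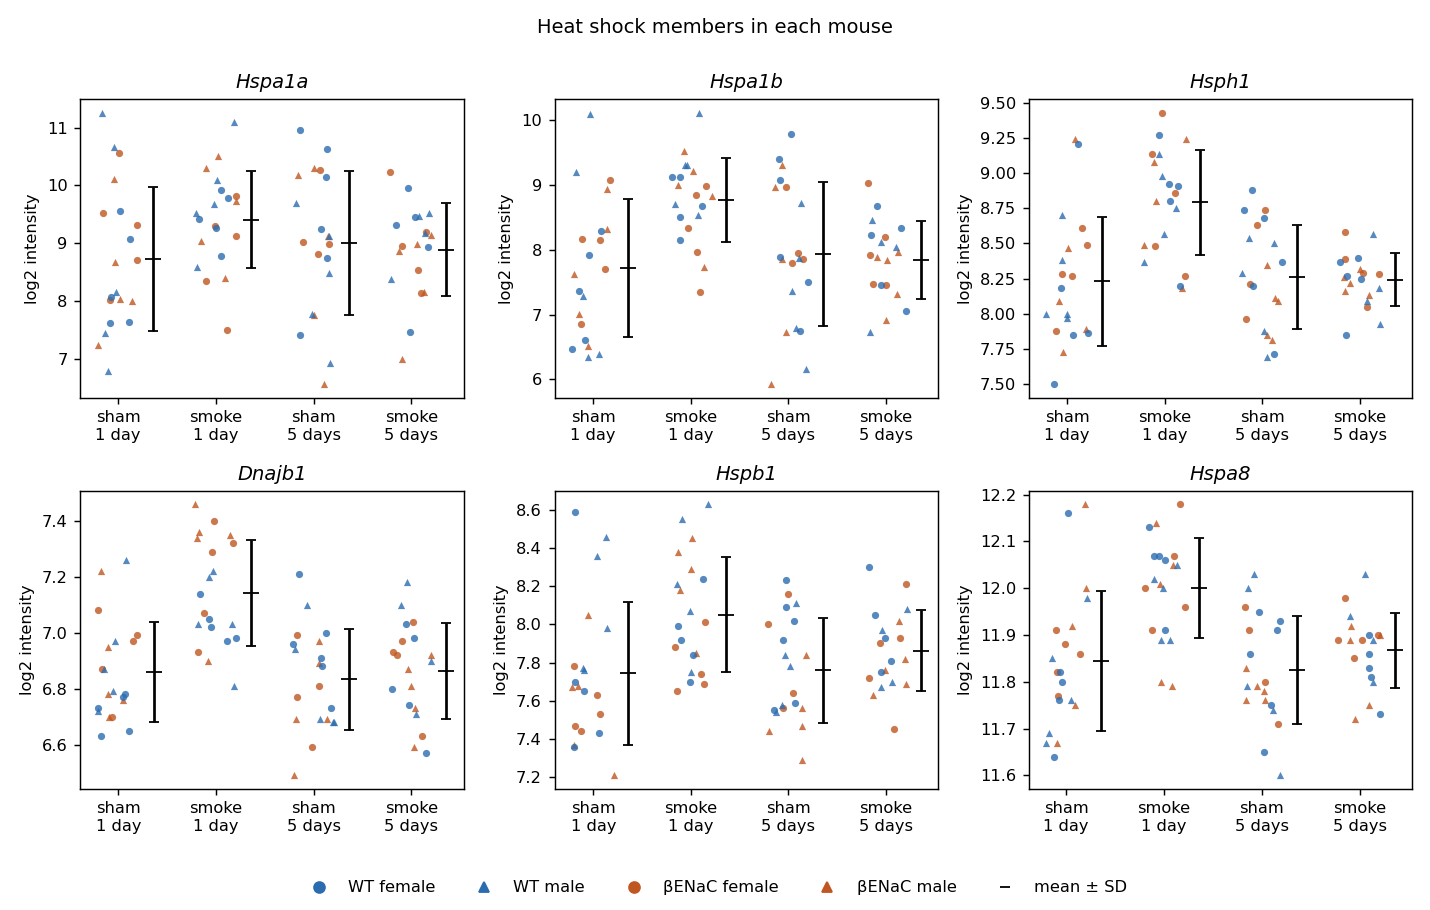
Log2 intensity of the 6 measured heat shock genes of the cytosol in every mouse, by exposure and duration. Points are mice, with colour for genotype and shape for sex, and bars are means with SD. The smoke mice at 1 day are shifted up in Hspa1b, Hsph1, Dnajb1, Hspb1 and Hspa8, while the 5-day groups lie level with each other.

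The chaperones of the ER did not share in this. Hspa5 ran from 8.57 through 8.82 to 9.56 in sham and from 8.54 through 8.89 to 9.22 in smoke lungs at 1 day. The groups overlapped throughout, with a difference of 0.01 (−0.13 to 0.14, adjusted p = 0.969). Hsp90b1 had a difference of −0.07 (adjusted p = 0.171). Pdia4 ran from 7.52 through 7.8 to 9.03 in sham and from 7.35 through 7.67 to 8.08 in smoke lungs. Although 19 of the 20 smoke mice were below the sham mean of their own group, its difference of −0.18 (−0.32 to −0.03) did not pass the test (adjusted p = 0.124).

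After 5 days, other genes of the list were called. The durations are compared with each other further below. No cytosolic heat shock gene was called by limma or was below 0.05 before adjustment, and 2 of the 9 genes, both of the ER, were lower, against 3.37% of all rows. Hspa1b ran from 5.93 through 7.86 to 9.79 in the 20 sham and from 6.73 through 7.92 to 9.03 in the 19 smoke lungs. The medians lay side by side, and the smoke mice were contained within the sham range (difference −0.1, adjusted p = 0.905). Hsph1 ran from 7.69 through 8.25 to 8.88 and from 7.85 through 8.26 to 8.58 (difference −0.02, adjusted p = 0.937). Dnajb1 had a difference of 0.04 (adjusted p = 0.812), Hspa8 of 0.04 (adjusted p = 0.59), Hspb1 of 0.11 (adjusted p = 0.471) and Hspa1a of −0.12 (adjusted p = 0.903). The intervals were −0.08 to 0.15 for Dnajb1 but −0.77 to 0.53 for Hspa1a, so that the data bound the 5-day difference tightly for the former and loosely for the latter.

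Hsp90b1 was the firmer of the lower genes. It ran from 11.39 through 11.54 to 11.69 in sham and from 11.1 through 11.4 to 11.61 in smoke lungs at 5 days. Of the 19 smoke mice, 17 were below the sham mean of their group and 8 were below every sham mouse. In WT females the groups did not overlap, with 11.42, 11.43, 11.45, 11.55, 11.58 and 11.66 in sham and 11.1, 11.31, 11.35, 11.38 and 11.39 in smoke mice. The difference over all mice was −0.14 (SE 0.0312, −0.21 to −0.08, 0.906-fold, adjusted p = 0.00238). It stayed called with any mouse left out, and was −0.13 (adjusted p = 0.00357) without the WT smoke female that had the lowest value and whose array stood apart.

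Hspa5 ran from 8.58 through 8.94 to 9.21 in sham and from 8.48 through 8.75 to 9.42 in smoke lungs at 5 days. The smoke mice were lower in 18 of 19, but 1 βENaC smoke female (replicate 3, 9.42) was the highest of all, and only 4 were below every sham mouse. The difference was −0.17 (SE 0.055, −0.29 to −0.06, 0.886-fold, adjusted p = 0.0466). This call was marginal: it was lost in 28 of the 39 fits that left out a mouse, among them the one without the WT smoke female whose array stood apart (−0.16, adjusted p = 0.0774), and in 3 of the 8 other ways of processing. Pdia4 ran from 7.58 through 7.79 to 8.28 in sham and from 7.07 through 7.63 to 8.6 in smoke lungs. With 17 of 19 smoke mice below their sham mean and 8 below every sham mouse, its difference was −0.2 (SE 0.0683, −0.34 to −0.06), and it did not pass the test (adjusted p = 0.0731). The same βENaC smoke female held its maximum. With array weights, Pdia4 was called (adjusted p = 0.0131).

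**Figure D2:**
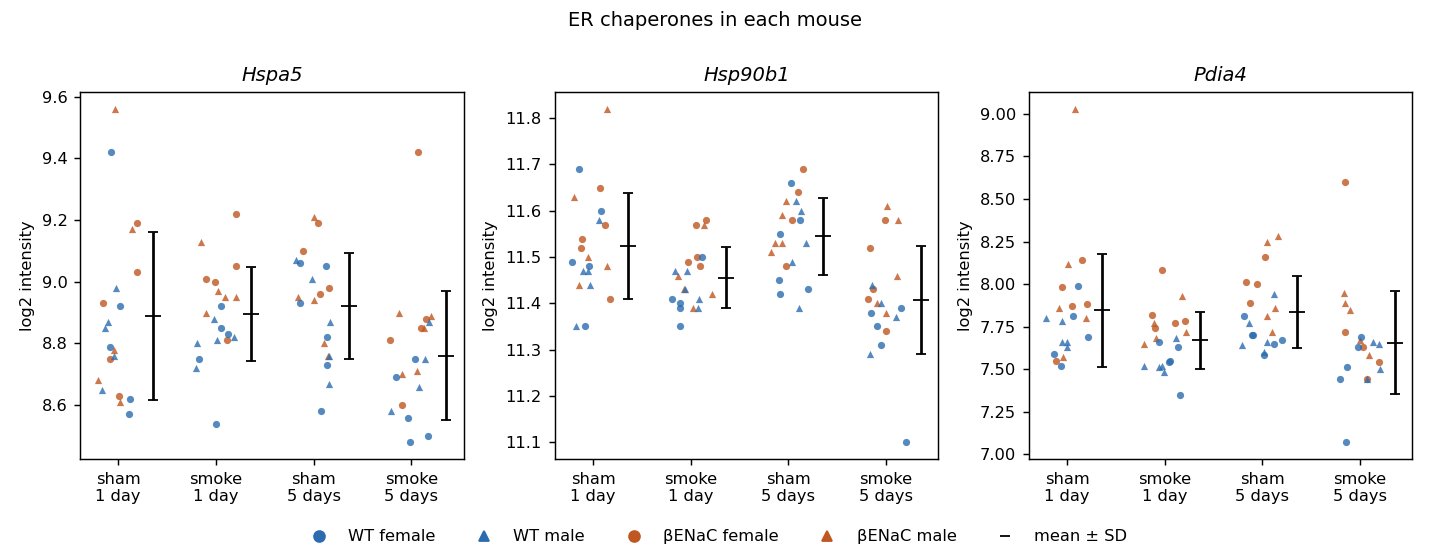
Log2 intensity of Hspa5, Hsp90b1 and Pdia4 in every mouse, by exposure and duration. Points are mice, with colour for genotype and shape for sex, and bars are means with SD of all mice of an exposure and duration. Smoke mice at 5 days lie below sham mice in Hsp90b1, and βENaC mice lie above WT mice in Pdia4 at both durations.

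Whether the responses of 1 and 5 days differ was asked of an exposure by duration term fitted over all mice with limma. No gene of the list was called, against 0.612% of rows, while 4 of 9 were below 0.05 before adjustment, against 11.1% of rows. The closest was Hsph1, whose smoke difference was 0.59 smaller at 5 days (term −0.59, SE 0.16, −0.9 to −0.27, adjusted p = 0.0603). It was called when the lowest 30% of rows were left out (adjusted p = 0.0439), with array weights (0.0146), with genotype and sex in the model (0.0401), and in 10 of 79 fits that left out a mouse. Hspa1b had the largest term in size, −1.14 (−1.92 to −0.35, adjusted p = 0.177), and that of Hspa1a was −0.8 (−1.73 to 0.12, adjusted p = 0.549). The term was −0.25 for Dnajb1 (adjusted p = 0.128), −0.2 for Hspb1 (adjusted p = 0.613) and −0.12 for Hspa8 (adjusted p = 0.381). Thus a gene called at 1 day and not at 5 days was not shown to differ between the durations. For the ER genes the term was −0.17 for Hspa5 (−0.35 to 0.01, adjusted p = 0.506), −0.07 for Hsp90b1 (adjusted p = 0.626) and 0 for Pdia4 (−0.23 to 0.23, adjusted p = 0.998).

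**Figure D3:**
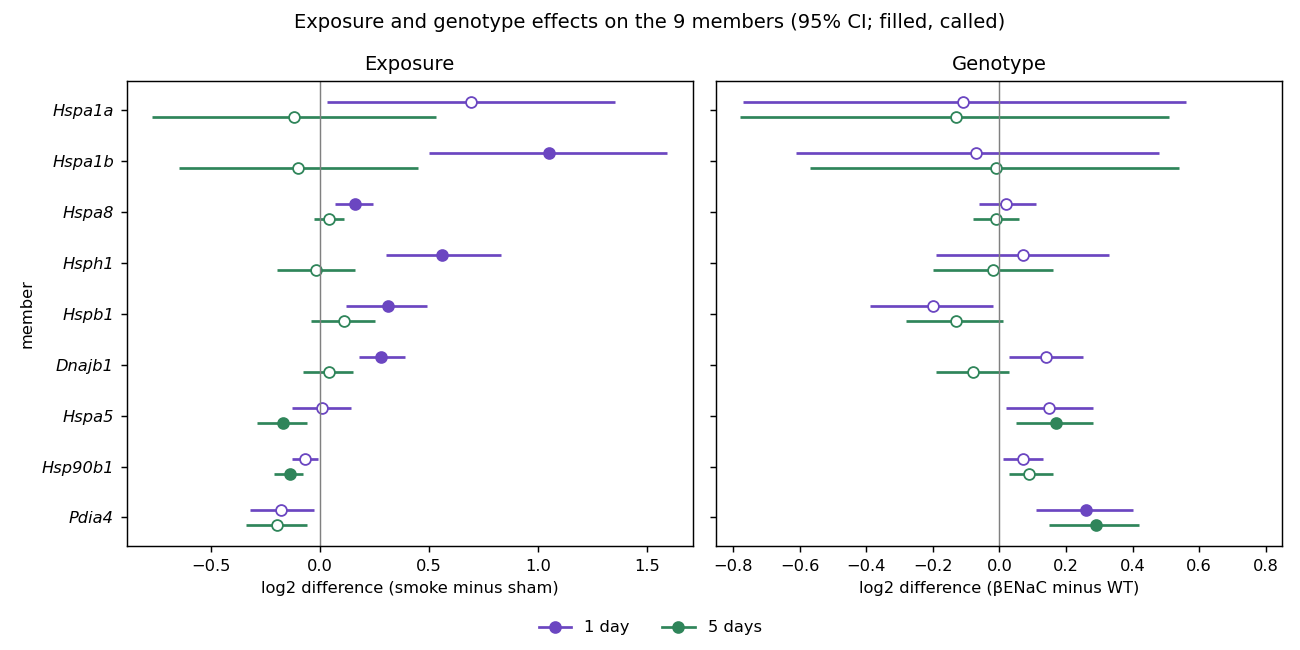
Differences (log2) between smoke and sham (left) and between βENaC and WT mice (right) for the 9 measured genes at 1 and 5 days, with 95% confidence intervals. Filled points passed the test. The heat shock genes are right of 0 for smoke at 1 day and the ER genes left of 0 for smoke and right of 0 for genotype at 5 days.

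The second comparison asked which genes differ between βENaC and WT lungs. It concerned the ER genes. Pdia4 was higher in βENaC mice at both durations, and Hspa5 at 5 days. That makes 1 of 9 genes at 1 day, where 3.58% of rows were called higher, and 2 of 9 at 5 days, where 4.85% were. Pdia4 ran from 7.35 through 7.63 to 7.99 in 20 WT and from 7.55 through 7.81 to 9.03 in 20 βENaC mice at 1 day. The highest of these was the βENaC sham male whose array stood apart. The difference was 0.26 (SE 0.0718, 0.11 to 0.4, 1.2-fold, adjusted p = 0.0211) with that mouse, and 0.2 (adjusted p = 0.00503) without it. At 5 days Pdia4 ran from 7.07 through 7.65 to 7.94 in 20 WT and from 7.44 through 7.86 to 8.6 in 19 βENaC mice. The ranges overlapped again, and the difference was 0.29 (SE 0.0685, 0.15 to 0.42, 1.22-fold, adjusted p = 0.0042).

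Hspa5 ran from 8.48 through 8.75 to 9.07 in WT and from 8.6 through 8.89 to 9.42 in βENaC mice at 5 days, a difference of 0.17 (SE 0.0552, 0.05 to 0.28, 1.12-fold, adjusted p = 0.0484). As with its smoke difference, the call was lost in 28 of 39 fits that left out a mouse (0.15, adjusted p = 0.0707 without the WT smoke female whose array stood apart) and in 3 of 8 other ways of processing. At 1 day the difference of Hspa5 was 0.15 (adjusted p = 0.213). Hsp90b1 was 0.09 higher in βENaC mice at 5 days, next to the threshold (0.03 to 0.16, adjusted p = 0.0509), and was called in 6 of the 8 other ways of processing. Smoke and genotype thus had opposite signs in these ER genes at 5 days: the lowest group mean of Pdia4 was that of WT smoke females (7.47 ± 0.24, SD, n = 5) and the highest that of βENaC sham females (8.02 ± 0.11, SD, n = 4). No heat shock gene of the cytosol was called for genotype by limma, while 2 were below 0.05 before adjustment, both at 1 day. The nearest was Dnajb1 at 1 day, with 0.14 (adjusted p = 0.118), which was called (0.17, adjusted p = 0.0342) only without the WT sham male with the highest value.

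Markers of other cell types moved with genotype. Of 3 alveolar macrophage markers, 2 were higher in βENaC mice at both durations, Marco by 0.86 and 0.84 and Chil3 by 0.7 and 0.79. The mean of these markers at 5 days ran from 9.25 to 9.89 in WT and from 8.97 to 10.63 in βENaC mice. Of 5 plasma cell markers, which mark cells rich in ER, 1 was called: Jchain was 1.59 higher in βENaC mice at 5 days (adjusted p = 6.07e-08), and the mean of the 5 ran from 4.66 to 5.66 in WT and from 5.24 to 6.29 in βENaC mice. No plasma cell marker was called at 1 day, where Jchain differed by 0.86 (adjusted p = 0.0633). Other markers were lower in βENaC mice: the endothelial Cdh5 by −0.11 and −0.12 at 1 and 5 days, the club cell marker Scgb1a1 by −0.06 and −0.07, and Ager of alveolar type 1 cells by −0.12 at 5 days (adjusted p = 0.0019). Their part in the Pdia4 and Hspa5 differences was not tested.

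Whether smoke acts alike in both genotypes and both sexes was tested by interaction terms. No gene of the list was called by limma for exposure by genotype or for exposure by sex at either duration, and none was below 0.05 before adjustment. Calls were nearly absent over the whole table (0.00638% of rows for each term at 1 day and 0% at 5 days). Before adjustment, 6.98% and 6.33% of rows were below 0.05 at 1 day, and 3.82% and 3.46% at 5 days. The intervals were wide where the mice were spread. For Hspa1b at 1 day, the smoke difference was −0.61 in βENaC relative to WT (−1.71 to 0.48). Group means of Hspa1b were 7.6 in WT sham, 8.95 in WT smoke, 7.84 in βENaC sham and 8.58 in βENaC smoke mice. For Dnajb1 the term was 0.11 (−0.1 to 0.33), and for Hsp90b1 at 5 days 0.07 (−0.05 to 0.2).

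Within single genotype and sex groups, 2 differences passed, both in βENaC males at 1 day, where 1.04% of rows were called higher. Dnajb1 was 6.7, 6.76, 6.78, 6.95 and 7.22 in sham and 6.9, 7.34, 7.35, 7.36 and 7.46 in smoke males, a difference of 0.4 (adjusted p = 0.0404). Hspb1 was 7.21, 7.37, 7.67, 7.68 and 8.05 in sham and 7.85, 8.18, 8.29, 8.38 and 8.45 in smoke males, a difference of 0.63 (adjusted p = 0.0359). In both genes, all but 1 smoke male exceeded every sham male. With 5 mice against 5 the calls were fragile: leaving out sham replicates 2, 3 or 5 or smoke replicates 2, 3, 4 or 5 ended both, and leaving out sham replicate 4 ended 1 of them. In WT females at 1 day, the values of Dnajb1 did not overlap, with 6.63 to 6.78 in sham and 6.97 to 7.14 in smoke mice, without passing the test over all rows. The smoke difference of Hspa1b was 1.38 for WT females, 0.31 for βENaC females, 1.33 for WT males and 1.18 for βENaC males, and none passed.

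Sex was called by limma for no gene of the list, against 9.89% of rows at 1 day and 0.616% at 5 days. At an unadjusted p below 0.05 there was 1 gene at 1 day (22.2% of rows) and 2 at 5 days (11.3% of rows). Hspb1 was 0.27 higher in males at 1 day (adjusted p = 0.0517). It was called in 3 of the other ways of processing and in 12 fits that left out a mouse. The 2 genes at 5 days were Hsph1, with means of 8.34 in females and 8.16 in males, and Hspb1, with 7.89 and 7.73. Hspb1 thus leaned to males at 1 day and to females at 5 days. Hspa1a and Hspa1b also leaned to females at 5 days, by −0.55 (adjusted p = 0.536) and −0.51 (adjusted p = 0.487). Neither of them was below 0.05 before adjustment.

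The genes differed widely in how much mice of one group vary. The SD within groups was 1.08 for Hspa1a and 0.914 for Hspa1b, at the 99.9th and 99.8th percentile of all rows, where the median was 0.16. Hsph1 followed with 0.382 (95.8th percentile) and Hspb1 with 0.27 (87.6th). Hspa8 (0.121, 23.9th percentile) and Hsp90b1 (0.0921, 7.6th) varied less than most rows. A difference of 0.14 was therefore called in Hsp90b1, and one of 0.69 was not in Hspa1a.

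The mice did not vary in all genes together. After removal of the group means, and with every pair of values taken from a single array, Hspa1a and Hspa1b correlated with r = 0.95 over the 79 mice. Probes for either can take up messages of both, as said above, and the part of this in the value was not tested. The ER genes formed another set, with 0.8 for Hspa5 and Hsp90b1, 0.79 for Hspa5 and Pdia4, and 0.73 for Hsp90b1 and Pdia4. Hsph1 went with Hspa8 (0.86) and also with Hspa5 (0.78), and only weakly with Hspa1b (0.29). Dnajb1 correlated with 0.5 with both Hsp70 genes. Hspa1a and Hsp90b1 had a correlation of 0. A WT sham female at 1 day (replicate 3) was high in Hsph1 (9.21), Hspa8 (12.16), Hspb1 (8.59), Hspa5 (9.42) and Hsp90b1 (11.69) at once.

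**Figure D4:**
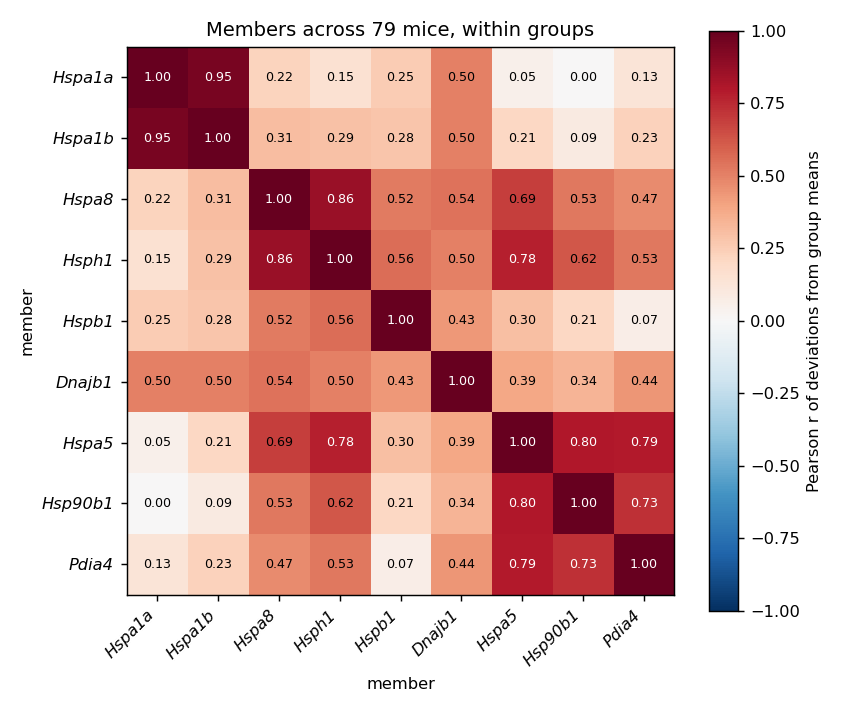
Pearson correlation of each pair of the 9 measured genes over 79 mice after the mean of each of the 16 groups was removed. Hspa1a and Hspa1b stand together (0.95), as do the ER genes (0.73 to 0.8), and Hspa8 and Hsph1 (0.86) lie nearer to the ER genes than to the inducible Hsp70 genes.

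Over the whole table, the symbols with the pattern most like Hspa1b across the 79 mice, group differences included, were Hspa1a (r = 0.93), Dnaja1 (0.61), Snord14e (0.6), Dnajb1 (0.59) and Bdkrb1 (0.57). The value for Hspa1a carries the limit given above, that probes for either gene can take up messages of both. Snord14e lies in an intron of Hspa8, and Bdkrb1 codes for the bradykinin B1 receptor. Those most like Hspa5 were Creld2 (0.87), Dnajb11 (0.87), Hyou1 (0.85), Manf (0.82) and Hsp90b1 (0.8), all of which are ER proteins. All values of a mouse come from a single array, and the correlations carry no test.

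The wider chaperone system was described by lists that include the genes above. Of 20 measured genes of the cytosolic Hsp70 system, 6 were higher and 1 was lower after 1 day of smoke, where 9.45% of all rows were called either way. The median was 0.09, and 4 of the 6 belong to the list above. The other two were the J-domain co-chaperones Dnaja1 (0.28, adjusted p = 0.000137), which was above the sham mean in 20 of 20 smoke mice, and Dnaja2 (0.12, adjusted p = 0.00305). The lower gene was Stub1, the ubiquitin ligase CHIP (−0.13, adjusted p = 0.0138). Of 12 genes of the Hsp90 system, 3 were higher and none was lower (median 0.07): Fkbp5, an immunophilin that is also a glucocorticoid target (0.65, adjusted p = 0.000485), Ahsa2, an activator of the Hsp90 ATPase (0.25, adjusted p = 0.000446), and Chordc1 (0.21, adjusted p = 0.00403). Of 8 small heat shock proteins, Hspb8 (0.22, adjusted p = 0.00354) was higher besides Hspb1.

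Other branches had no call by limma at 1 day. Below 0.05 before adjustment were 1 of 10 mitochondrial chaperones and proteases, 2 of 12 subunits of the chaperonin TRiC and prefoldin, 2 of 6 heat shock factors, and 2 of 19 sensors, factors and degradation genes of the unfolded protein response. The matching share of all rows is not given for smoke, so these unadjusted counts cannot be read as more than the table holds. Of genes not taken by the rule for named genes but known for their roles, Hsf1 differed by 0.11 (adjusted p = 0.106), Hsp90ab1 (cytosolic Hsp90 beta) by 0.07 (0.452), Bag3 by 0.15 (0.103), Xbp1 by 0 (0.994) and Ddit3 (CHOP) by 0.15 (0.204). In the ER itself calls were downwards, in 3 of 14 chaperones (median −0.06) and 2 of 12 oxidoreductases (median −0.05). They were Sil1, an exchange factor of BiP (−0.18, adjusted p = 0.00416), Dnajc10 (−0.12, adjusted p = 0.000663), the lectin chaperone Calr (−0.12, adjusted p = 0.0338), Txndc5 (−0.12, adjusted p = 0.013) and Ero1b (−0.17, adjusted p = 0.047).

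At 5 days, where 6.53% of rows were called either way, 5 of 14 ER chaperones (median −0.13) and 3 of 12 ER oxidoreductases (median −0.07) were lower, and none was higher. Next to Hspa5 and Hsp90b1 these were Serpinh1, the collagen chaperone Hsp47 (−0.41, 0.75-fold, adjusted p = 0.000309), Calr (−0.19, adjusted p = 0.0015), Sil1 (−0.11, adjusted p = 0.0492), Txndc5 (−0.16, adjusted p = 0.00657), Pdia3 (−0.13, adjusted p = 0.0112) and Pdia5 (−0.2, adjusted p = 0.0235). Serpinh1 was below the sham mean in 19 of 19 smoke mice and below every sham mouse in 10. Calr was below the sham mean in 18 of 19 and below every sham mouse in 12. Single markers of other cells were also lower in smoke mice at 5 days. They were Ear2 (−0.41, adjusted p = 0.000178), 1 of 3 alveolar macrophage markers, and Pecam1 (−0.11, adjusted p = 0.013), 1 of 2 endothelial markers. The macrophage marker Marco went the other way without being called (0.44, adjusted p = 0.116). Chil3 (−0.05, adjusted p = 0.87) and the endothelial Cdh5 (−0.05, adjusted p = 0.537) were not called either. Of the 5 plasma cell markers none was called, while Jchain (−0.44, adjusted p = 0.171), Mzb1 (−0.22, adjusted p = 0.159) and Tnfrsf17 (−0.17, adjusted p = 0.179) were below 0.05 before adjustment, and the mean of the 5 ran from 4.96 through 5.44 to 6.29 in sham and from 4.66 through 5.45 to 6.16 in smoke mice. Their part in the ER differences was not tested. The unfolded protein response list again had no call by limma among 19, with 2 genes higher and 2 lower before adjustment. In the cytosol, Dnaja2 (0.14, adjusted p = 2e-04), Dnaja4 (0.16, adjusted p = 0.00635) and Fkbp5 (0.76, adjusted p = 0.0116) were higher, as were 3 of 8 small heat shock proteins, namely Hspb7 (0.59, adjusted p = 0.00298), Cryaa (0.3, adjusted p = 0.000465) and Hspb8 (0.22, adjusted p = 0.00194). Hspb7 is a protein of heart and muscle. The heart muscle marker Tnnt2 was also higher in smoke mice at 5 days (0.4, adjusted p = 0.0264), 1 of 4 such markers, whose mean ran from 8.31 to 9.59 in sham and from 8.39 to 10.92 in smoke mice. All 4 were higher before adjustment at p below 0.05 by limma (median 0.38), with 0.33 for Myh6, 0.36 for Myl7 and 0.76 for Nppa. Of 5 skeletal muscle markers (median 0.58) none was called, and 1 was higher before adjustment, Ckm (0.52, adjusted p = 0.236). Their part in the Hspb7 difference was not tested.

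**Figure D5:**
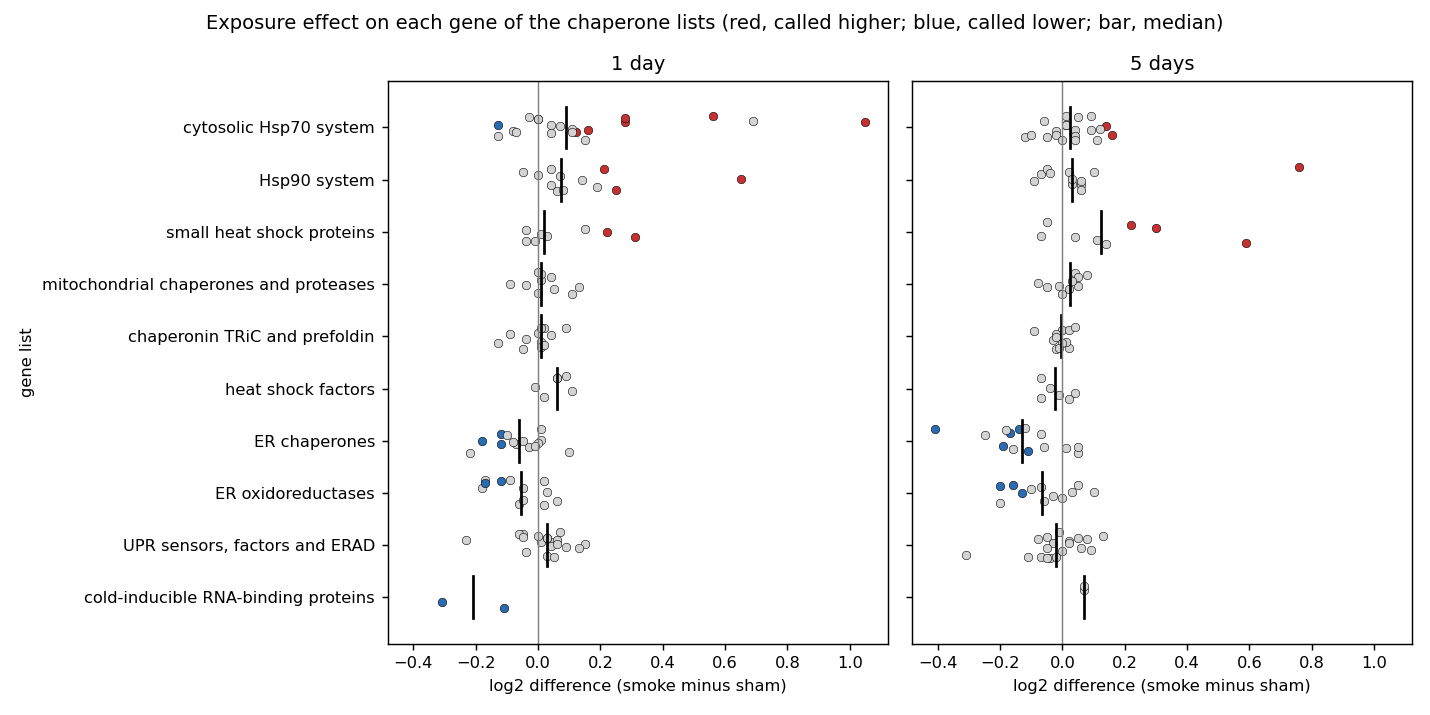
Smoke minus sham difference (log2) of every measured gene of the chaperone lists at 1 and 5 days. Each point is a gene, red where called higher and blue where called lower, and bars are list medians. Cytosolic Hsp70 and Hsp90 genes reach to the right at 1 day (medians 0.09 and 0.07), and ER chaperones lie to the left at 5 days (median −0.13).

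Between durations, 4 of the 115 genes of the chaperone and cold-inducible lists passed the exposure by duration test, against the 0.612% of rows given above. The lists were chosen with earlier results of these data known, so this count is a description only. The term was −0.28 for Dnaja1 (adjusted p = 0.0183), 0.37 for Cirbp, the cold-inducible RNA-binding protein (adjusted p = 0.0269), 0.32 for Cryaa (adjusted p = 0.0415) and 0.18 for Dnajc10 (adjusted p = 0.0145). Cirbp is induced by mild cold in cultured cells. It was lower in smoke mice at 1 day by −0.31 (adjusted p = 8.65e-05), in 19 of 20 mice relative to their sham mean, and its relative Rbm3 by −0.11 (adjusted p = 0.0485). At 5 days they differed by 0.07 each (adjusted p = 0.726 and 0.291).

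For genotype, ER chaperones were called higher in βENaC mice in 3 of 14 at 1 day (median 0.12) and 6 of 14 at 5 days (median 0.1), with none lower, where 5.87% and 10.2% of rows were called either way. Sdf2l1, a partner of ER J-domain proteins, differed most, by 0.57 (adjusted p = 0.00467) and 0.71 (adjusted p = 6.17e-05). Calr was higher by 0.12 and 0.14, Hyou1 by 0.17 (adjusted p = 0.0391), Dnajb11 by 0.16 (adjusted p = 0.0394) and Dnajc3 by 0.11 (adjusted p = 0.0157), the last 3 at 5 days. Of the 12 ER oxidoreductases, 3 were higher and 1 was lower at 1 day, and 2 were higher and 1 was lower at 5 days. Besides Pdia4 the higher ones were Ero1a (0.17 and 0.15) and, at 1 day, P4hb (0.13, adjusted p = 0.00894). The lower one was Pdia5 (−0.21 and −0.18). Of 19 genes of the unfolded protein response and ER degradation, 5 were higher at 5 days, among them Edem2 (0.19, adjusted p = 0.000416), Edem1 (0.18), Sel1l (0.1) and Derl1 (0.09). No gene of the Hsp70 or Hsp90 system was called higher by limma at either duration (1 before adjustment, at 1 day), while Dnaja4 was lower in βENaC mice at 5 days (−0.13, adjusted p = 0.0219), as were Hspb8 (−0.22) and Cryab (−0.16). Outside the ER, 2 of 12 subunits of TRiC and prefoldin were higher in βENaC mice at 1 day and none was lower (median 0.07). They were Cct7 (0.13, adjusted p = 0.0228) and Pfdn2 (0.12, adjusted p = 0.0181). Before adjustment 6 of the 12 were higher at 1 day. At 5 days none was called higher and 1 was called lower.

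For scale, the 8 targets of the antioxidant factor NRF2 on a list of their own were all higher at 1 day (median 1.27). The largest differences were 3.65 for Slc7a11 and 2.87 for Nqo1. At 5 days, 7 of 8 were higher (median 0.6). Immediate early genes were lower in 1 of 10 at 1 day and 5 of 10 at 5 days (median −0.31), with −0.7 for Nr4a1 and −0.47 for Fos. Over all rows, 9.45% were called either way at 1 day and 6.53% at 5 days. In the same lungs, 3 of 6 genes of the glucocorticoid response were higher at 1 day and 1 of 6 at 5 days. Fkbp5 of the Hsp90 system is among them at both durations. Of 15 clock genes, 3 were higher at 1 day, while 5 were higher and 2 lower at 5 days, with Cry1 at 0.44 and 0.95. The part of these responses in the chaperone differences was not tested.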

How the data were processed

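RNA of 79 right lungs was hybridized to Affymetrix MoGene 2.1 arrays on 1 plate. The deposited values are log2 intensities. The authors obtained them by RMA with adjustment for probe sequence and GC content, followed by quantile normalization and median polish to gene level (Expression Console 1.4 and Partek 6.6, per the submitters' processing notes), which can compress differences of very bright genes. They removed 1 array as mislabelled. Groups came from sample titles, since the source names of 13 WT smoke mice give the other genotype. A further mouse was assigned to WT by the authors from its Scnn1b level, so Scnn1b is not an independent check there. Arrays carry no counts, and their number limits the precision. No column was left out.

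Symbols came from RefSeq transcripts (21057 rows) or the study's tables (780 rows), and 9513 rows had none. The deposited values were fitted as they are in R 4.3.3 with limma 3.58.1 (lmFit, eBayes) for each duration with terms for genotype, exposure and sex. Further fits added interactions, an exposure by duration term over all mice, and 1 mean per group for differences within groups. The adjustment covered all 31350 rows. The scripts were tested on simulated data. The R package data.table (version 1.17.8), and in Python 3.11.15 pandas 2.3.3 and matplotlib 3.10.9, handled the values and drew the figures. Alternatives were the ordinary linear model of the study's methods, 1 fit over all mice, median centring, quantile normalization, a filter on dim rows, array weights, another variance prior, the replicate block, and each mouse left out.

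The text names the 10 list genes, Scnn1b, the marker genes, up to 4 called genes with the smallest adjusted p of each pathway list and comparison, and the 5 symbols most like Hspa1b and Hspa5. Genes outside this rule are said to be so. The members and lists were chosen with earlier results of these data known. P-values weigh a difference against the spread between single mice, which were treated as independent. The exposure chamber had places for several mice, and the fits had no term for exposure sessions.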

Additional observations from a re-analysis of the deposited data

Results flagged for a closer look

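In 10 of 144 pairs of a gene and a group, a single mouse lay far from the others of its group, where chance gives about 1 in 20. A βENaC sham female at 5 days (replicate 1) was high in both Hsp70 genes, with 10.26 for Hspa1a (next mouse 9.02) and 8.96 for Hspa1b (next 7.95). The WT smoke female at 5 days whose array stood apart (replicate 2) was low in Hsph1, with 7.85 (next 8.25), and in Hsp90b1, with 11.1 (next 11.31). Dnajb1 was low in a βENaC smoke female at 5 days (replicate 1, 6.63, next 6.92) and in a βENaC smoke male at 1 day (replicate 1, 6.9, next 7.34). Hspb1 was high in a WT sham female at 1 day (replicate 3, 8.59, next 7.7). Pdia4 was high in 3 smoke mice, a βENaC female at 1 day (replicate 4, 8.08, next 7.82), a βENaC female at 5 days (replicate 3, 8.6, next 7.72) and a WT male at 1 day (replicate 1, 7.68, next 7.52). The first of these females was also among the 3 mice with the highest plasma cell markers (6.16).

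The smoke response differed between 1 and 5 days in 4 of the 115 genes of the chaperone and cold-inducible lists, against 0.612% of all rows, by limma's exposure by duration term: Dnaja1 (−0.28), Cirbp (0.37), Cryaa (0.32) and Dnajc10 (0.18), each as the 5-day difference minus the 1-day difference. Since the lists were chosen with earlier results of these data known, the count is no independent test of them.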

How the results depend on the processing

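Of the 10 called differences of list genes, the 8 other than those of Hspa5 kept their call in all 8 alternatives and with any mouse left out. The count of list genes called for smoke at 5 days was 1 in place of 2 with the ordinary linear model, with 1 fit over all mice and with each array centred on its median, 3 with array weights, and 1 to 3 with a mouse left out. The exposure by duration count was 1 in place of 0 without the lowest 30% of rows, with array weights and with genotype and sex added (0 to 1 with a mouse left out, and 1 without the βENaC sham male whose array stood apart). For genotype, the count ran from 1 to 2 at 1 day with a mouse left out, and at 5 days it was 1 in place of 2 with array weights, 3 with median centring, without the lowest 30% of rows, with the trend and robust prior and with the replicate block, and 1 to 3 with a mouse left out. The sex count at 1 day was 1 with 1 fit over all mice, without the lowest 30% of rows and with array weights (0 to 1 with a mouse left out). The within-group calls ran from 0 to 3 with a mouse left out. The pathway lists held 31 smoke calls over both durations (29 to 38 with a mouse left out) and 6 past a 1.3-fold change. Leaving out the 2 arrays that stood apart was chosen after seeing the data.

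Differences that turned sign were near 0 and called in no fit. With array weights they were 0.03 for Hspa1a, 0.01 for Hspa1b and 0 for Hsph1 (smoke at 5 days), and −0.02 for Hspa5 and −0.03 for Pdia4 (sex at 1 day). With quantile normalization they were −0.01 for Hspa5 (smoke at 1 day), −0.04 for Hspa5 and −0.02 for Pdia4 (sex at 1 day) and 0.01 for Pdia4 (by duration). With median centring they were −0.01 for Hspa5 (sex at 1 day) and 0 for Pdia4 (by duration). With a mouse left out, ranges that spanned 0 were −0.22 to 0.03 for Hspa1a and −0.15 to 0.05 for Hspa1b (genotype at 1 day), −0.11 to 0.09 for Hspa1b and −0.05 to 0.01 for Hsph1 (genotype at 5 days), −0.01 to 0.04 for Hspa5 (smoke at 1 day), −0.06 to 0.01 for Hsph1 (smoke at 5 days), −0.06 to 0.03 for Pdia4 (by duration), −0.03 to 0.03 for Hspa5, −0.07 to 0.04 for Hsph1 and −0.04 to 0.04 for Pdia4 (sex at 1 day), and −0.04 to 0.01 for Hspa5 (sex at 5 days). The cause was not tested.

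With the replicate block, Hsp90b1 was called for genotype at 5 days (0.1, adjusted p = 0.0305), Hsph1 for genotype at 5 days was 0, and no other call of list genes changed. The mice share only a number: residuals of same-numbered mice had mean correlations of −0.0219 to 0.0609. A second row per gene could not be tried, since each measured gene has 1.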
